A study of Mus musculus with 9 samples.

Results

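The 2 receptors for glucocorticoid hormones and 7 genes that they are known to switch on were followed in the aging mouse brain. The 9 genes were taken by name, as the rows of Nr3c1, Nr3c2, Fkbp5, Sgk1, Tsc22d3, Zbtb16, Hif3a, Sult1a1 and Pdk4 among the 49315 genes of the count table by a rule that uses no measured value, and they were proposed with earlier results of these data known. The study asked how age changes proteins and their modification in the brain, and measured transcripts beside them. PolyA-selected RNA from whole brains of individual C57BL/6J mice of wild-type (WT) genotype was sequenced, from 5 young (3 months by the labels, 3 or 4 months in the study) and 4 old mice (33 months). All mice were males, and their brains were snap-frozen. Young mice carry the replicate numbers 1 to 5 and old mice the numbers 1, 3, 4 and 5.

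Corticosterone, the main glucocorticoid of mice, is released by the adrenal gland under control of the hypothalamus and pituitary, with a daily rhythm and in response to stress. It binds the glucocorticoid receptor and, with higher affinity, the mineralocorticoid receptor, both of which wait in the cytoplasm bound to chaperones of the Hsp90 system. The hormone-bound receptors move to the nucleus and bind glucocorticoid response elements, where they raise or lower transcription. The mineralocorticoid receptor is best known in brain for its high level in hippocampal neurons, whereas the glucocorticoid receptor is made by most brain cells.

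A response element is built from a pair of hexamers, with the consensus AGAACA, arranged as a palindrome with a gap of 3 bases. Promoter windows of 300 bases, from 250 before to 50 after an annotated start, were taken from RefSeq (GRCm38.p6). The search used 14 windows, from 7 of the 9 genes. Nr3c1 and Zbtb16 had no window in this search, which does not show that they lack an annotated start. The palindrome was searched as GNACA, any 3 bases and TGTNC, and the single hexamer as AGAACA on either strand, so that a hexamer may lie within a palindrome. Of all 32851 mouse promoter windows, 156 (0.475%) held the palindrome and 6233 (19%) held the hexamer. Of the 14 windows of these genes, 1 held the palindrome and 5 held a hexamer. Sgk1 and Tsc22d3 gave more than 1 window each, and all matches lay in windows of Sgk1, Sult1a1 and Tsc22d3. Windows of the same gene are not independent, and these shares were not tested against those of all windows. The first window is shown because it is the one with the palindrome, the second because it holds a pair of hexamers, and the third because it belongs to the target gene with the lowest p between the ages and held neither. Capitals mark the matches, and each sequence runs 5′ to 3′ along the strand of its gene.
Sgk1, chr10:21993640-21993939, plus strand: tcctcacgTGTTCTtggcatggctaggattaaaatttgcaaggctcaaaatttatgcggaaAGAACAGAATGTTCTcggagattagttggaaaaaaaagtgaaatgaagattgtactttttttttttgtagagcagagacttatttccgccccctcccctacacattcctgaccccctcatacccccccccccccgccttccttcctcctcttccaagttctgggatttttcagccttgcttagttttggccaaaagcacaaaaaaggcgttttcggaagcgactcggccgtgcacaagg
Sult1a1, chr7:126676369-126676668, minus strand: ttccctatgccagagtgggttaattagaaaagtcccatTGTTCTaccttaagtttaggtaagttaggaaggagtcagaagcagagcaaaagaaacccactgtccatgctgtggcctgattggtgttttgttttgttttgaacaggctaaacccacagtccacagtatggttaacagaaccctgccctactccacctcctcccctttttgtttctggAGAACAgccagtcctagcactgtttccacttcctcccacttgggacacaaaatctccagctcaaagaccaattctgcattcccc
Fkbp5, chr17:28486100-28486399, minus strand: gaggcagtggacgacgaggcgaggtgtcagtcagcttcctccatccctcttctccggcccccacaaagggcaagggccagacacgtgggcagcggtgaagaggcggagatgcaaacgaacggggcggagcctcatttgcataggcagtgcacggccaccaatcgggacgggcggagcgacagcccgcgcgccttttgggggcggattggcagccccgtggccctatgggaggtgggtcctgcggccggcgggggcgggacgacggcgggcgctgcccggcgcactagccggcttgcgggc
In the Sgk1 window the palindrome GAACAGAATGTTC began 188 bases before the start, and hexamers began 242, 189 and 180 bases before it, the last 2 overlapping the palindrome. In the Sult1a1 window the hexamers began 212 and 34 bases before the start. The remaining hexamers lay 195 and 13 bases before 2 other starts of Sgk1 and 185 bases before a start of Tsc22d3. These matches are letters in a window of fixed length, and binding was not measured.

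The genes lie on 8 chromosomes of GRCm38, and the intervals given here are those of the GENCODE M21 annotation. Nr3c1 (ENSMUSG00000024431) spans chr18:39410545-39519421 and Nr3c2 (ENSMUSG00000031618) spans chr8:76899442-77245012. Fkbp5 (ENSMUSG00000024222) spans chr17:28399094-28517527, Sgk1 (ENSMUSG00000019970) chr10:21882184-21999903 and Tsc22d3 (ENSMUSG00000031431) chrX:140539528-140600659. Zbtb16 (ENSMUSG00000066687) spans chr9:48654297-48836222, Hif3a (ENSMUSG00000004328) chr7:17031507-17062427, Sult1a1 (ENSMUSG00000030711) chr7:126672865-126676432 and Pdk4 (ENSMUSG00000019577) chr6:5483351-5496309. The counts are of reads on the exons of each gene. The exons of Nr3c2 share 247 bases with Gm10649 and those of Sult1a1 share 61 bases with Sgf29, both on the opposite strand, and reads from these stretches cannot be told apart without strand.

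Libraries held between 14229259 and 21150439 counts. Levels are given as CPM, the counts of a gene scaled to a fixed library total after normalization between libraries. Old mice were tested against young mice in edgeR by quasi-likelihood, and p was adjusted by Benjamini-Hochberg over the 18492 genes that passed a filter on low counts, all 9 receptor and target genes among them. A gene was called at an adjusted p under 0.05. By this rule 2039 genes (11%) were called, 1146 (6.2%) higher and 893 (4.83%) lower in old mice. The summed CPM of 7 astrocyte, 7 oligodendrocyte and 6 neuron markers overlapped between the ages, and all 3 kinds of marker were present in every library of this tissue. The sums of 6 endothelial markers and of 5 blood genes did not overlap. In whole tissue, fewer cells of a type and less RNA per cell cannot be told apart.

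Transcripts of 6 of the 7 target genes were higher in old brains, whereas neither receptor was called. Fkbp5, Sgk1, Zbtb16, Hif3a and Sult1a1 rose 1.73-fold to 3.03-fold with no overlap between the ages, Pdk4 rose 1.36-fold with overlap, and Tsc22d3 was not called. The 9 genes thus had 6 calls, all higher in old mice, where 6.2% of all genes tested were called higher. With a log2 fold change over 0.58 as a further condition, 5 of the 9 were called, beside 2.68% of all genes called in either direction and 2.28% called higher by the same condition. The median log2 fold change was 0.79 over the 9 genes, 0.86 over the 7 targets and -0.000092 over all genes tested.

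**Figure D1:**
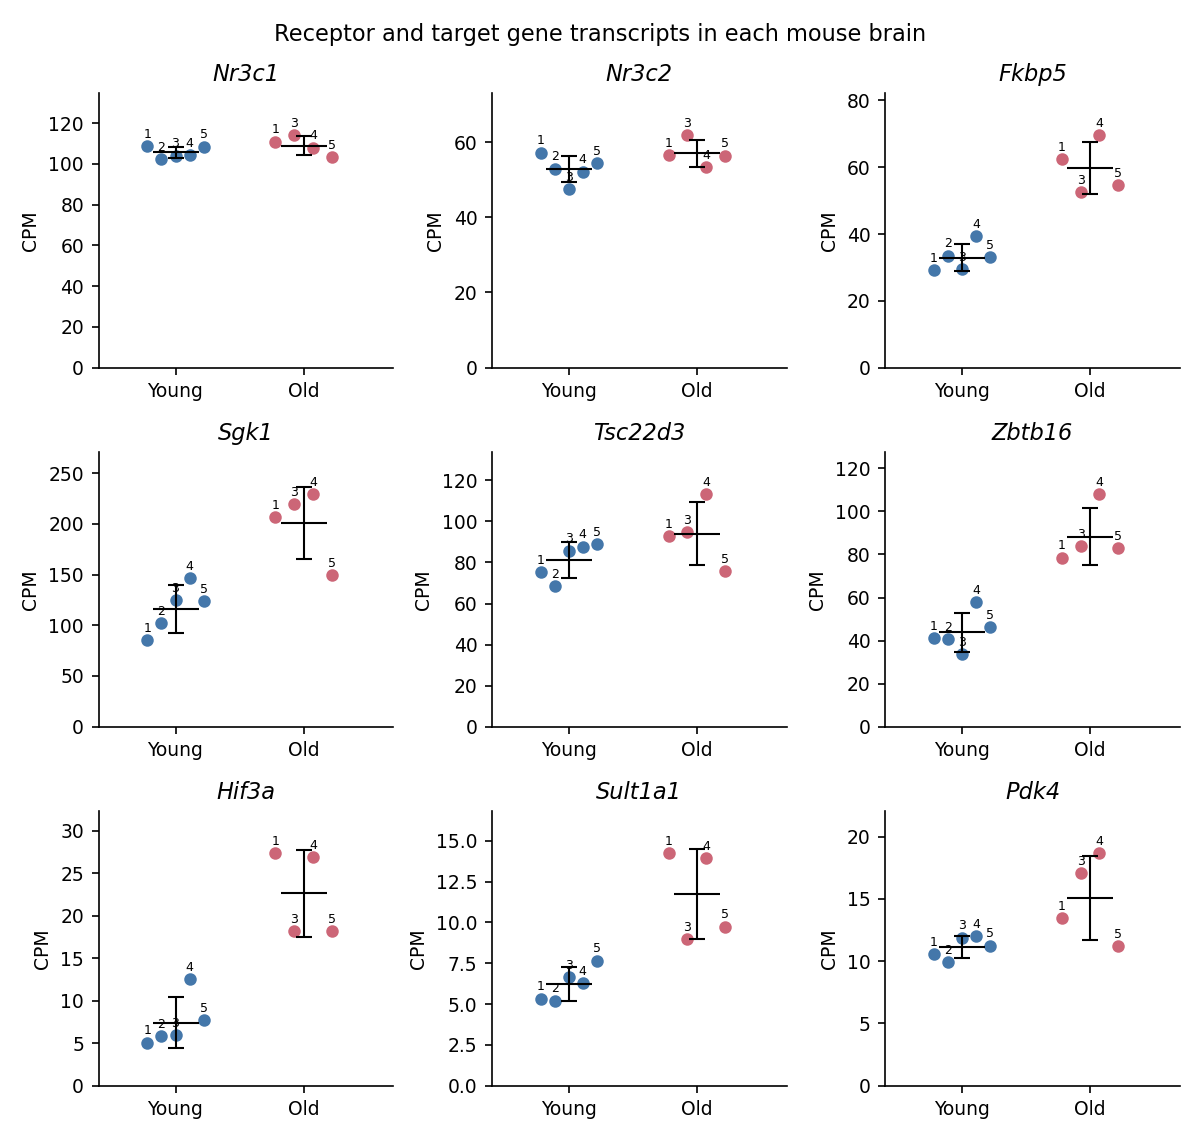
CPM (y axes, each from 0) of the 2 receptors and 7 target genes in each brain. Points are single mice with their replicate numbers, blue for young and red for old, and bars give the mean and SD of each age (n = 5 and 4). The ages do not overlap for Fkbp5, Sgk1, Zbtb16, Hif3a and Sult1a1, and they overlap for Nr3c1, Nr3c2, Tsc22d3 and Pdk4.

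Nr3c1 encodes the glucocorticoid receptor. Its CPM was 109, 102, 104, 104 and 108 in young mice 1 to 5 and 111, 114, 108 and 103 in old mice 1, 3, 4 and 5. All 9 brains lay within a narrow band, and the lowest old value was below 4 of the 5 young values. The means were 106 ± 2.86 (SD, n = 5) and 109 ± 4.58 (SD, n = 4), with a log2 fold change of 0.045 (SE 0.038; edgeR, adjusted p = 0.49). The fitted variation of Nr3c1 between mice of one age was the smallest of the 9 genes, with a biological coefficient of variation of 4.0%, and 9.07% of all genes tested had a smaller spread within age on the log2 scale.

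Nr3c2 encodes the mineralocorticoid receptor. It was at 57.2, 52.9, 47.5, 52.1 and 54.4 CPM in the young mice and at 56.6, 61.8, 53.3 and 56.3 CPM in the old mice. Old mouse 3 was above every young mouse, and the other old mice lay within the young range. The means were 52.8 ± 3.56 CPM (SD, n = 5) and 57.0 ± 3.52 CPM (SD, n = 4), a log2 fold change of 0.11 (SE 0.056; edgeR, adjusted p = 0.25). Neither receptor passed the test under any of 19 alternative settings, and on the scale of log2(TPM + 1), where the median of all genes lay at -0.14, the changes were -0.12 for Nr3c1 and -0.052 for Nr3c2 (limma). Compared per length, as TPM, which divides by gene length and scales each library to a fixed sum, the ratio of Nr3c1 to Nr3c2 was 1.75 ± 0.098 (SD, n = 5) in young and 1.67 ± 0.081 (SD, n = 4) in old mice, and the ages overlapped.

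Fkbp5, a co-chaperone that lowers the affinity of the receptor for its hormone and is itself induced by it, was the target gene with the lowest p. Young mice 1 to 5 had 29.2, 33.5, 29.4, 39.3 and 33.1 CPM, and old mice 1, 3, 4 and 5 had 62.5, 52.6, 69.5 and 54.6 CPM. Every old brain was above every young brain, with young mouse 4 the highest of its age and old mice 4 and 1 the highest of theirs. Fkbp5 rose from 32.9 ± 4.10 to 59.8 ± 7.77 CPM (mean ± SD, n = 5 and 4), a log2 fold change of 0.86 (SE 0.093; edgeR, adjusted p = 0.00010) or 1.82-fold. Lack of overlap was found for 12.6% of all genes tested, 6.5% with higher and 6.08% with lower values in old mice.

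Zbtb16, a zinc finger transcription factor also called PLZF, was higher in every old brain than in any young one. Its CPM was 41.0, 40.6, 33.5, 57.9 and 46.2 in young and 78.5, 84.0, 108 and 82.8 in old mice. The gap between the highest young mouse, number 4, and the lowest old mouse, number 1, was wider than the range of the other 4 young mice. The log2 fold change was 1.004 (SE 0.12; edgeR, adjusted p = 0.00028), from 43.8 ± 9.05 to 88.3 ± 13.3 CPM (mean ± SD, n = 5 and 4).

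Hif3a belongs to the hypoxia-inducible factors and has splice forms that inhibit the other members of that family. It showed the largest fold change of the 9 genes and also the largest variation between mice of one age, with a biological coefficient of variation of 22.4%. The young mice had 5.07, 5.86, 5.91, 12.5 and 7.72 CPM and the old mice 27.4, 18.2, 26.9 and 18.2 CPM. Young mouse 4 stood above the other young mice and still below every old mouse, and the old mice fell into a higher pair (1 and 4) and a lower pair (3 and 5). The mean rose from 7.42 ± 3.01 to 22.7 ± 5.15 CPM (SD, n = 5 and 4), a log2 fold change of 1.60 (SE 0.22; edgeR, adjusted p = 0.00053) or 3.03-fold. Its raw counts ran from 86 to 259 in the young and from 258 to 515 in the old libraries, so counting error was small against the differences between mice.

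Sult1a1 encodes a sulfotransferase that conjugates phenols and catecholamines. Young mice had 5.33, 5.20, 6.67, 6.28 and 7.66 CPM and old mice 14.2, 8.96, 13.95 and 9.74 CPM. The ages did not overlap, and old mice 1 and 4 were again well above old mice 3 and 5. The means were 6.23 ± 1.01 and 11.7 ± 2.76 CPM (SD, n = 5 and 4), a log2 fold change of 0.93 (SE 0.15; edgeR, adjusted p = 0.0021).

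Sgk1, a kinase that regulates ion channels and transporters, had the highest level per length of the 9 genes. It was at 85.1, 102, 125, 147 and 124 CPM in young mice and at 207, 219.7, 229 and 149.5 CPM in old mice. Old mouse 5 lay only just above young mouse 4, while the other 3 old mice were far above the young range. Sgk1 rose from 116 ± 23.5 to 201 ± 35.7 CPM (mean ± SD, n = 5 and 4), a log2 fold change of 0.79 (SE 0.14; edgeR, adjusted p = 0.0031) or 1.73-fold.

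Pdk4 encodes a kinase that inhibits pyruvate dehydrogenase and so limits glucose oxidation. Its CPM was 10.6, 9.90, 11.9, 12.03 and 11.2 in young and 13.4, 17.1, 18.7 and 11.2 in old mice. Old mouse 5 lay inside the young range, below young mice 3, 4 and 5, and the other 3 old mice were above it. The means were 11.1 ± 0.899 and 15.1 ± 3.39 CPM (SD, n = 5 and 4), a log2 fold change of 0.44 (SE 0.13; edgeR, adjusted p = 0.040). This call was lost when any one of young mice 1, 2, 3 or 5 or old mice 3 or 4 was left out, with adjusted p from 0.059 to 0.12, and log2 fold changes between 0.31 and 0.56 over all 9 such fits.

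Tsc22d3, also called GILZ, encodes a leucine zipper protein that mediates anti-inflammatory effects of glucocorticoids. Young mice had 75.2, 68.6, 85.7, 87.6 and 88.9 CPM and old mice 92.8, 94.7, 113 and 75.7 CPM. Of the 4 old mice, 3 were above all young mice, and old mouse 5 was below 3 of the 5 young mice. The means were 81.2 ± 8.89 and 94.1 ± 15.4 CPM (SD, n = 5 and 4), a log2 fold change of 0.21 (SE 0.098; edgeR, adjusted p = 0.19). Without old mouse 5 the log2 fold change was 0.31 and passed the threshold (adjusted p = 0.045).

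Levels between genes were compared per length, on the authors' TPM scale. In young mice the order of the mean TPM was Sgk1 (61.8 ± 15.4), Tsc22d3 (49.0 ± 10.5), Nr3c1 (37.3 ± 6.79), Nr3c2 (21.3 ± 3.21), Zbtb16 (21.2 ± 1.76), Fkbp5 (13.4 ± 1.53), Sult1a1 (10.8 ± 2.59), Pdk4 (8.32 ± 1.84) and Hif3a (2.79 ± 0.803; SD, n = 5 throughout). Nr3c2 and Zbtb16 in young mice differed by less than their spread. In old mice Sgk1 (94.5 ± 15.1 TPM) and Tsc22d3 (49.99 ± 7.74 TPM) kept the first places. Zbtb16 (38.6 ± 5.56 TPM) came next, before Nr3c1 (33.9 ± 2.73 TPM), and Fkbp5 (21.8 ± 3.73 TPM) stood before Nr3c2 (20.3 ± 1.60 TPM; SD, n = 4 throughout), and within each of these 2 pairs the means differed by less than the larger of their SDs. Sult1a1 (18.2 ± 5.23 TPM), Pdk4 (9.85 ± 1.72 TPM) and Hif3a (7.87 ± 2.18 TPM) followed, as in young mice. Within single libraries Sgk1 was above Tsc22d3 and Tsc22d3 above Nr3c1 in 9 of 9. Nr3c1 was above Zbtb16 in 6 of 9, Nr3c2 was above Fkbp5 in 7 of 9, and Pdk4 was above Hif3a in 8 of 9. Young mouse 3 had the highest young TPM of both receptors, Fkbp5, Sgk1, Tsc22d3, Sult1a1 and Pdk4, which its CPM did not show, so the tests of age rest on the counts and TPM fits stand as alternatives.

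**Figure D2:**
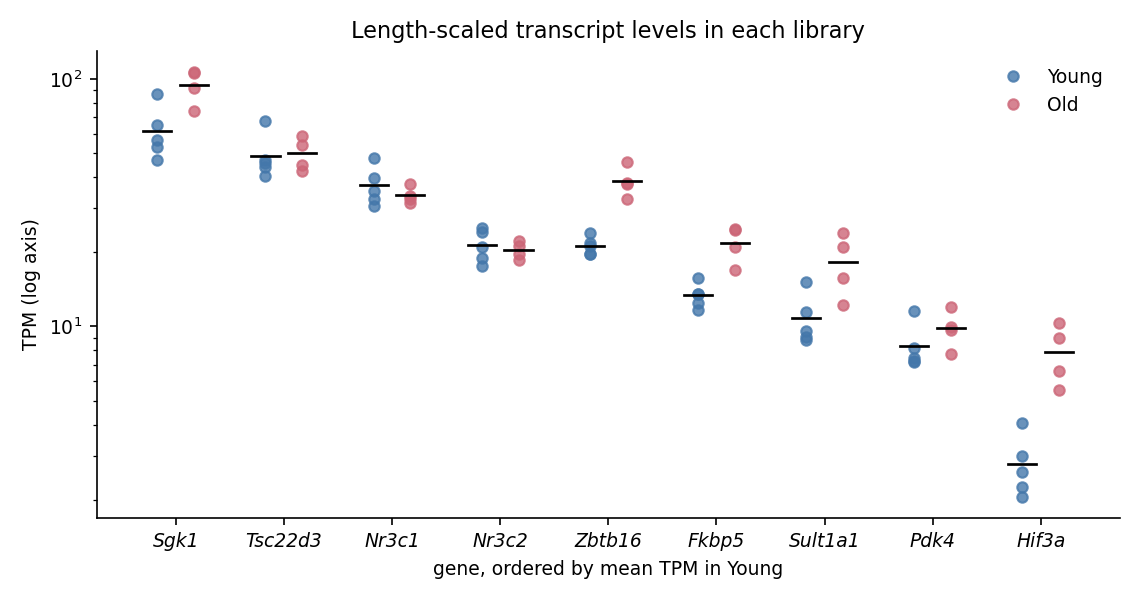
TPM (log axis) of the 2 receptors and 7 target genes in each library, ordered by the young mean. Points are single mice (5 young in blue, 4 old in red) and black lines the means, which run from 61.8 for Sgk1 to 2.79 for Hif3a in young mice, and from 94.5 to 7.87 in old mice.

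Some mice stood on the same side of the mean of their age for every target. The deviation of each mouse from the mean log2 CPM of its own age was taken, which removes the age difference. Young mouse 4 had the highest young level of 5 of the 7 targets and young mouse 5 of the other 2, and both lay above the young mean for 7 of 7. Old mouse 4 had the highest old level of 5 targets and lay above the old mean for 7 of 7, by 0.27 on average on the log2 scale. Young mouse 1 and old mouse 5 lay above the mean of their age for 0 of the 7 targets, with mean deviations of -0.21 and -0.26. The summed CPM of 7 astrocyte markers was also highest in young mouse 4 (4509) and old mouse 4 (4396) within their ages. Among the old mice it was lowest in old mouse 5 (4202), and among the young mice in mouse 2 (4122). Slc1a2 made up the largest part of that sum, and single markers differed. Young mouse 4 had the highest young Slc1a2 (2525) but the lowest young Slc1a3 (473). Old mouse 4 had the lowest old Slc1a2 (2270) but the highest old Aldoc (1080), Gjb6, Gja1 and Aldh1l1. Old mouse 4 also had the highest old sums of oligodendrocyte (4290), endothelial (296), choroid plexus (746), meningeal (75.0) and blood (409) genes. Its neuron (4677) and microglia (271) sums were the lowest of the old mice. Young mouse 4 had the highest microglia sum (278) of its age but the lowest endothelial (225) and choroid plexus (535) sums. The part of these sums in the pattern was not tested. The receptors did not share the order of the targets, since young mouse 4 and old mouse 4 lay below the mean of their age for both.

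**Figure D3:**
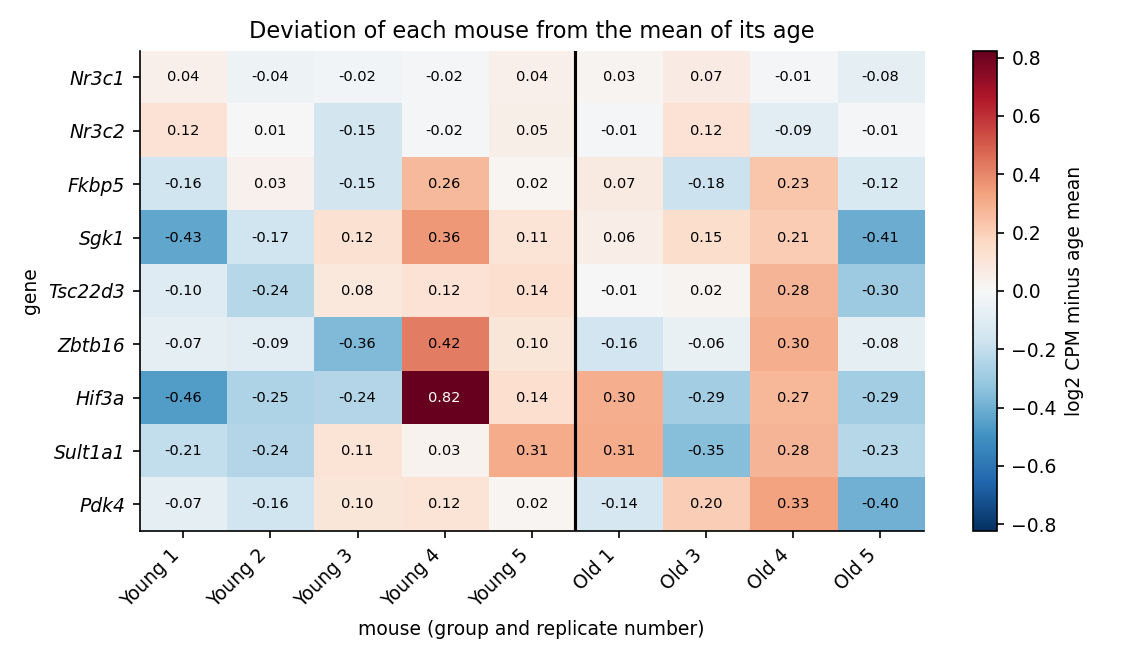
Deviation of each mouse (columns) from the mean of its own age for each gene (rows), as log2 CPM (colour and printed value). Young mouse 4 and old mouse 4 are above the mean of their age for all 7 target genes, old mouse 5 and young mouse 1 are below it for all 7, and the deviation of Hif3a in young mouse 4 is the largest at 0.82.

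All 36 pairs among the 9 genes were correlated over these deviations (n = 9 mice, two-sided exact permutation test over the 2880 arrangements of mice within their ages, Benjamini-Hochberg adjustment over the 36 pairs). The 21 pairs of targets all had a positive Pearson's r, with a median of 0.58 and a range from 0.22 to 0.89. These pairs share genes and mice, so they are not independent results, and pairs of other genes were not set beside them. Of 36 pairs, 0 passed an adjusted p under 0.05 by Pearson's r or by Spearman's rho, and 6 had an unadjusted p under 0.05 by Pearson's r. The lowest p was that of Tsc22d3 with Pdk4, with r = 0.89 (exact permutation test, p = 0.0017, adjusted p = 0.0625) and rho = 0.83 (p = 0.0069, adjusted p = 0.125). Without the 2 mice farthest from the median of Tsc22d3, old 5 and young 2, r was 0.75. Sgk1 with Pdk4 followed, with r = 0.76 (exact permutation test, p = 0.0038, adjusted p = 0.069), rho = 0.85 (p = 0.0069, adjusted p = 0.125) and r = 0.70 without young 1 and old 5. Fkbp5 with Hif3a had r = 0.89 (exact permutation test, p = 0.010, adjusted p = 0.11), rho = 0.88 (p = 0.0125, adjusted p = 0.15) and r = 0.79 without young 4 and old 4. Fkbp5 with Zbtb16 had r = 0.80 (exact permutation test, p = 0.021, adjusted p = 0.15) and rho = 0.37 (p = 0.38, adjusted p = 0.63), and r fell to 0.28 without young 4 and old 4, on which that relation rested.

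The 14 pairs of a receptor with a target had a median r of -0.098, from -0.52 to 0.46, and 5 of them were positive. The 2 receptors had r = 0.61 with each other (exact permutation test, p = 0.10, adjusted p = 0.37) and rho = 0.67 (p = 0.077, adjusted p = 0.44), and r = 0.62 without old mice 3 and 5. Among all genes tested with a mean log2 CPM of at least 1, the genes whose deviations followed a target most closely over the 9 mice were Stk10 for Fkbp5 (r = 0.97), Sdcbp for Sgk1 (r = 0.96), Arpc1b for Zbtb16 (r = 0.97), Mapre2 for Hif3a (r = 0.97), Etnppl for Sult1a1 (r = 0.97), Anln for Tsc22d3 (r = 0.98) and Gm13456 for Pdk4 (r = 0.99). For the receptors these were Gm5148 (r = 0.95 with Nr3c1) and Bmpr1a (r = 0.96 with Nr3c2). Each is the closest of all genes over 9 mice that share libraries, and is given as a description only. Of these 9 genes, Anln (log2 fold change 0.56), Arpc1b (0.60) and Etnppl (1.02) were higher in old mice (edgeR, adjusted p of 0.0025, 0.0086 and 0.00097).

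Blood genes moved with the age difference. The summed CPM of the hemoglobin genes Hba-a1, Hba-a2, Hbb-bs and Hbb-bt with Alas2 was 95.3, 91.3, 86.1, 106 and 116 in young mice 1 to 5 and 262, 128, 409 and 169.6 in old mice 1, 3, 4 and 5. The hemoglobin genes are close copies, so the split of reads among them is uncertain. All 5 genes were called higher (log2 fold changes from 1.11 to 1.35), and old mice 4 and 1, the highest for blood, were also the highest old mice for Fkbp5 and, in the other order, for Hif3a and Sult1a1. Old mouse 4 was also the highest old mouse for Zbtb16, Sgk1, Tsc22d3 and Pdk4. Below it, these targets did not follow the order of blood. Old mouse 1 was the lowest old mouse for Zbtb16 and lay below old mouse 3 for Sgk1, Tsc22d3 and Pdk4. Among the young mice the blood sum was highest in mice 5 and 4, which both lay above the young mean for 7 of 7 targets. In a fit with the mean log2 CPM of these 5 genes as a covariate, chosen after seeing the data, Fkbp5 (log2 fold change 0.55, edgeR, adjusted p = 0.017) and Zbtb16 (0.70, adjusted p = 0.041) were still called. Hif3a (1.04, adjusted p = 0.072), Sgk1 (0.59, adjusted p = 0.16), Sult1a1 (0.42, adjusted p = 0.28) and Pdk4 (0.25, adjusted p = 0.58) were not, and Tsc22d3 stood at -0.046 (adjusted p = 0.91). The covariate separates the ages itself, so blood and age cannot be told apart in that fit.

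Of 6 endothelial markers 4 were called higher, among them Ly6c1 (log2 fold change 0.94, edgeR, adjusted p = 0.000050). The other 2, Cldn5 (-0.14, adjusted p = 0.37) and Slco1c1 (-0.12, adjusted p = 0.23), leaned lower with age and were not called. The summed CPM of all 6 ran from 225 to 235 in young and from 251 to 296 in old mice. Ly6c1 alone rose from a mean of 22.2 to 42.6, so the gap between the sums does not show a rise of every marker. Of 6 microglia markers 3 were called higher, with sums from 203 to 278 in young and from 271 to 327 in old mice, and young mouse 4 held the highest young sum. Of 7 astrocyte markers edgeR called 0, with 2 at an unadjusted p under 0.05 and 2 called by DESeq2, and the lowest adjusted p were those of Gjb6 (log2 fold change 0.23, adjusted p = 0.059) and Gja1 (-0.12, adjusted p = 0.073). Their sums ran from 4122 to 4509 in young and from 4202 to 4396 in old mice. Oligodendrocyte markers were split, with Mobp and Ermn called higher and Mog and Opalin lower, and Stmn2 of 6 neuron markers was called lower. Of 5 mural markers Kcnj8 was called higher. Of 6 choroid plexus and 4 meningeal markers edgeR and DESeq2 called 0, and 1 of them, Aqp1, had an unadjusted p under 0.05 in edgeR. The part of these cell types in the rise of the targets was not tested.

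Outside the 7 targets, 26 further genes that glucocorticoids are known to induce were measured. The list was chosen by knowledge of the pathway, with earlier results of these data known. In old brains 13 of them were higher and 1 lower, beside 6.2% and 4.83% of all genes, and 12 were not called. Their median log2 fold change was 0.32. Plin4, which coats lipid droplets, had the largest change after Lcn2, from 4.76, 5.53, 5.91, 11.3 and 6.73 CPM in young mice 1 to 5 to 38.7, 21.6, 46.5 and 27.5 CPM in old mice 1, 3, 4 and 5. Young mouse 4 was again the highest young and old mouse 4 the highest old brain, and the ages did not overlap (log2 fold change 2.29, SE 0.24; edgeR, adjusted p = 0.000086). Lcn2, a secreted lipocalin of inflammation, picked after its values were seen, was at 0.261, 0.443, 0.344, 3.14 and 0.556 CPM in young and at 8.39, 4.80, 16.7 and 1.29 CPM in old mice. Old mouse 5 lay below young mouse 4, so the ages overlapped (log2 fold change 2.95, SE 0.67; edgeR, adjusted p = 0.013). Without young mouse 4 the log2 fold change was 4.28, without old mouse 4 it was 2.26, and with the blood covariate described above it was 0.91 and not called (adjusted p = 0.64).

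Further genes of that list rose by smaller amounts. Glul, the glutamine synthetase of astrocytes, rose from 1451 ± 37.4 to 1743 ± 67.8 CPM (mean ± SD, n = 5 and 4; log2 fold change 0.26, edgeR, adjusted p = 0.00069). Klf15, a transcription factor of nutrient metabolism, rose by a log2 fold change of 0.47 (adjusted p = 0.0012), and the phagocytic receptor Mertk by 0.67 (adjusted p = 0.0018). Sdc4, a heparan sulfate proteoglycan of the cell surface, rose by 0.34 (adjusted p = 0.0037) and Txnip, which binds thioredoxin, by 0.56 (adjusted p = 0.0071). For Txnip, 606 bases of its exons lie opposite to Gm15441, and shorter stretches of Plin4 and Glul also lie opposite to another gene. Dusp1, a phosphatase of MAP kinases, was the only member of the list called lower, with a log2 fold change of -0.34 (adjusted p = 0.021), a call lost without young mouse 1 or old mouse 1, 3 or 4 (adjusted p from 0.052 to 0.055), and Per1 stood at 0.082 (adjusted p = 0.31). Dusp1 and Per1 were picked after their values were seen. On the log2(TPM + 1) scale limma, there testing each gene against the variance trend of all genes, called 2 of the 26, and with the blood covariate 1 was called, namely Plin4 (log2 fold change 1.47, edgeR, adjusted p = 0.0073).

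**Figure D4:**
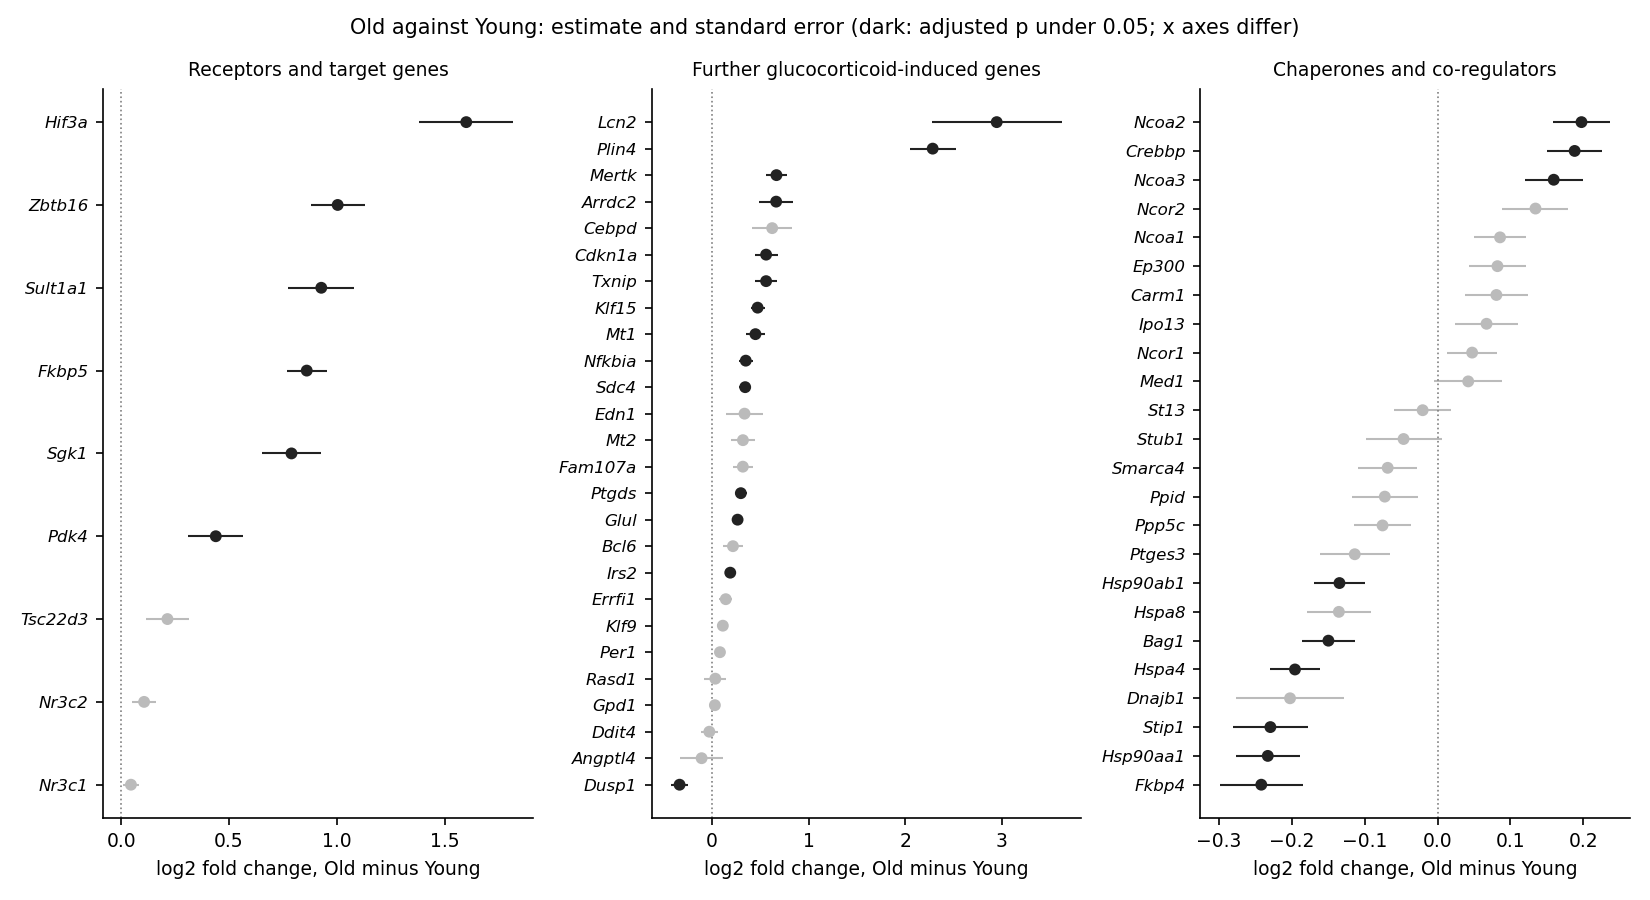
Log2 fold change of old over young mice (x axes, which differ between panels) with its standard error, for the 9 receptor and target genes, the 26 further glucocorticoid-induced genes and the 24 chaperones and co-regulators. Dark points have an adjusted p under 0.05. In the first panel 6 of 9 points are dark and all lie above 0, in the second 13 dark points lie above and 1 below 0, and in the third 3 lie above and 6 below 0.

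Chaperones that hold the receptors ready for hormone, and co-regulators that act with them on chromatin, were also compared. Of 24 such genes 3 were called higher and 6 lower, beside 6.2% and 4.83% of all genes. The changes were small, with a median log2 fold change of -0.058. The genes that fell are chaperones or co-chaperones. Hsp90aa1, the inducible Hsp90, fell from 874 ± 44.0 to 743 ± 30.0 CPM (mean ± SD, n = 5 and 4; log2 fold change -0.23, edgeR, adjusted p = 0.0044). Hspa4, of the Hsp110 family (-0.20, adjusted p = 0.0029), Stip1, which links Hsp70 to Hsp90 (-0.23, adjusted p = 0.011), and Fkbp4, the relative of Fkbp5 that favours transport of the receptor (-0.24, adjusted p = 0.015), fell as well, as did Hsp90ab1 and Bag1. The genes that rose are coactivators, namely the acetyltransferase Crebbp (0.19, adjusted p = 0.0065) and Ncoa2 (0.20, adjusted p = 0.0066), together with Ncoa3. Taking these genes with the steroid and peptide genes that follow, 14 were called, 7 in each direction, against 5 with limma on log2(TPM + 1), 9 without old mouse 1 and 3 with the blood covariate. Fkbp5 and Fkbp4, which compete for the same place on Hsp90, thus had log2 fold changes of opposite sign, 0.86 and -0.24.

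Genes that make, regenerate, clear or export steroids were mostly low in brain. Of 17 listed, 10 passed the filter on low counts. Of these, 3 were called higher and 1 lower, beside 6.2% and 4.83% of all genes. Hsd11b1, which regenerates corticosterone inside cells, had means of 19.2 ± 4.12 and 17.5 ± 1.59 CPM in the 2 ages (young first, SD, n = 5 and 4; log2 fold change -0.13, edgeR, adjusted p = 0.59). Tspo, a mitochondrial protein linked to cholesterol import and a marker of glial activation, rose from 3.67 ± 0.419 to 7.12 ± 0.833 CPM (log2 fold change 0.96, adjusted p = 0.00031). Cyp11a1, the side chain cleavage enzyme that starts steroid synthesis, fell from 3.44 ± 0.46 to 1.75 ± 0.351 CPM (log2 fold change -0.96, adjusted p = 0.0032). Exons of Cyp11a1 share 145 bases with Gm17322 on the same strand, and those of Tspo share 53 bases with Mcat on the opposite strand. The drug and steroid exporters Abcb1a (0.23, adjusted p = 0.019) and Abcb1b (0.47, adjusted p = 0.038) rose. These 2 genes are close copies that also share exon bases with genes on the opposite strand, so the split of reads between them is uncertain. The call of Abcb1b was lost without any one of young mice 1, 2, 3 or 5 or old mice 1, 3 or 4 (adjusted p from 0.064 to 0.11) and that of Abcb1a without old mouse 1 (adjusted p = 0.055).

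The adrenal enzymes Cyp11b1 and Cyp11b2 and the plasma carrier Serpina6 were listed at 0 counts in all 9 libraries, which allows up to 0.142 to 0.211 CPM per library (3 counts, for counting error only). Hsd11b2, which inactivates corticosterone, had 4 to 14 counts per library and was not tested. Of 11 peptides and receptors of the hypothalamic and pituitary axis, 8 were tested and Avp, the precursor of vasopressin, was called. That is 1 of 8 (12.5%), beside 11% of all genes tested. The young brains had 8.10, 17.8, 10.9, 9.18 and 11.9 CPM of Avp and the old brains 30.9, 22.003, 20.8 and 13.7 CPM. Old mouse 5 lay below young mouse 2, and the other old mice were above all young mice (log2 fold change 0.92, SE 0.22; edgeR, adjusted p = 0.018). Without old mouse 1 it was 0.70 and not called (adjusted p = 0.058). Crh, the hypothalamic releasing hormone, stood at a log2 fold change of -0.066 (adjusted p = 0.83). Of the 8 genes tested, 4 had an unadjusted p under 0.05 in edgeR. Beside Avp these were Pomc (-0.75, adjusted p = 0.090), Ucn (-1.64, adjusted p = 0.076) and Crhbp (0.28, adjusted p = 0.15). Pomc and Ucn were low, with young means of 2.18 and 0.719 CPM. Of 5 pituitary markers, Tshb passed the filter (-0.51, adjusted p = 0.073), and Gh reached 29 counts in young mouse 1 and at most 9 elsewhere.

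Corticosterone has a daily rhythm and follows arousal, so clock genes and immediate early genes were set beside the targets. The time of day at which the brains were taken was not given in the sources used here. Of 12 clock genes 8 were called higher and Arntl was called lower, beside 6.2% and 4.83% of all genes. Per2, a clock gene that glucocorticoids also induce, changed most (log2 fold change 0.56, edgeR, adjusted p = 0.00013). Of 8 immediate early genes 4 were called lower, beside 4.83% of all genes. These were Arc (-0.45, adjusted p = 0.00019), Egr2 (-0.75, adjusted p = 0.0022), Fos (-0.76, adjusted p = 0.0025) and Egr1 (-0.23, adjusted p = 0.025). The call of Egr1 was lost without young mouse 1 or old mouse 1 or 4 (adjusted p from 0.063 to 0.068). Whether the clock and immediate early genes moved with the glucocorticoid targets for a shared reason was not tested.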

How the data were processed

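Whole-brain RNA of 5 young and 4 old mice was analysed, grouped by the age in the labels. The authors trimmed reads with Trimmomatic, aligned them to GRCm38 with STAR and counted unique reads on exons by gene with featureCounts, and deposited these counts without normalization. The authors also deposited TPM, with gene lengths not given in the sources used here, and a normalized signal, the counts divided by 1 size factor per library, for 17994 genes. Strand-specific counting is stated only for stranded libraries. In each file, 1 column of values belonged to no sample used here and was left out. The paper gives N = 5 for its transcript data, whereas 4 old mice were analysed here.

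Low genes were removed by filterByExpr of edgeR (at least 10 counts, 15 in total), libraries were scaled by TMM, and the effect of age was tested by quasi-likelihood in edgeR with Benjamini-Hochberg adjustment (edgeR 4.0.16, limma 3.58.1, DESeq2 1.42.0, R 4.3.3). Standard errors came from the fold change and F statistic, and log2 CPM used a prior count of 2. Symbols and positions came from GENCODE M21, where 345 gene IDs had no symbol. The fit was tested on simulated data. Libraries of one age differed by more than sampling noise (lowest chi-square per degree of freedom 3.71), so each counted as 1 replicate. P-values rest on the spread between mice.

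The 9 genes and all gene and marker lists were chosen with earlier results of these data known. All 9 were named, and of each other list the genes called, at most 6 by lowest p, or the 2 with the lowest p where none was called. Genes outside this rule were picked after their values were seen. Same-numbered mice of the 2 ages did not deviate together (r from -0.12 to 0.17 over 4 pairs). Alternatives were DESeq2 or upper-quartile size factors, the Wald test of DESeq2, limma on the normalized signal, on log2(TPM + 1) and on log2(TPM + 0.1), other filters, a replicate block, an adjusted p under 0.01, each mouse left out and, added after seeing the data, a blood covariate.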

Additional observations from a re-analysis of the deposited data

Results flagged for a closer look

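Of 72 combinations of a named gene and an age tested with Dixon's criterion, 1 had a sample far from the others, where chance gives about 3.6. Mertk was at 44.0 CPM in young mouse 4 and at 28.4 to 31.4 CPM in the other 4 young mice, still below the lowest old mouse (47.5 CPM). Young mouse 4 also had the highest young level of 5 of the 7 target genes.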

How the results depend on the processing

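Fkbp5 and Zbtb16 were called under all 19 alternatives, and Sgk1, Hif3a and Sult1a1 under 18, the exception being the blood covariate. Pdk4 was called under 9, Tsc22d3 under 1 and the receptors under 0. Of the values of single genes, 636 kept their direction and side of the threshold, 97 lost the call and 1 gained it. Values that changed sign were Nr3c1 (-0.12 on both TPM scales), Nr3c2 (-0.052 and -0.054), Per1 (-0.082 and -0.083) and Tsc22d3 (-0.046 with the blood covariate), and the median of all genes on these TPM scales was -0.14 and -0.16. On both TPM scales limma estimated an infinite prior degree of freedom, so each gene was tested against the trend of the variance over all genes and not against its own spread. At an adjusted p under 0.01, which is stricter by construction, 780 of all genes, 270 with the fold condition and 6 of the chaperone, steroid and peptide genes were called, against 2039, 495 and 14. On log2(TPM + 1) and log2(TPM + 0.1), 594 and 600 genes, 2 and 2 further induced genes and 5 and 5 chaperone, steroid and peptide genes were called, and the 421 higher and 74 lower calls with the fold condition became 217 and 163 on the first and 299 and 264 on the second. With the blood covariate these counts were 420 for all genes, 204 with the fold condition, 2 of the 9 genes, 1 with the fold condition, 1 further induced gene and 3 chaperone, steroid and peptide genes. The cause was not tested.

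With each mouse left out in turn, 1454 to 1942 genes were called, 392 to 604 with the fold condition, 5 to 7 of the 9 genes (5 with the fold condition in each fit), 11 to 16 further induced genes and 9 to 15 chaperone, steroid and peptide genes, the 9 being without old mouse 1. Pairs of genes correlated within age stayed at 0. With the replicate number as a block (replicate block, 4 shared numbers, young mouse 2 left out), 1671 genes, 461 with the fold condition, 6 of the 9 genes, 5 with the fold condition, 14 further induced and 14 chaperone, steroid and peptide genes were called. Since the numbers do not pair the mice, the block adds nothing on their origin. With 5 and 4 mice, small changes such as those of the receptors could not be resolved, and depth limited the steroid enzymes with few counts.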
